A study of Mus musculus with 9 samples.

Results

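The genes described here are 36 genes of the G1/S transition and of DNA replication, taken by symbol from a count table of 24421 gene symbols. All 36 symbols were found. The table holds bulk RNA sequencing of cultured mouse bone marrow cells, and it was made to ask how the drug SHP099, an allosteric inhibitor of the phosphatase SHP2 (gene Ptpn11), acts on leukaemic myeloid cells. Lineage-positive cells were removed from hind limb marrow, and the rest were grown for 5 days in IL-3, IL-6 and SCF into cells described as myeloid blast-like. The 9 libraries form 3 groups of 3. Wild-type (WT) cultures came from C57BL/6 mice and received vehicle. Mutant cultures came from Tet2-/-Flt3ITD mice, in which the DNA demethylase gene Tet2 is deleted and the cytokine receptor gene Flt3 carries an activating internal tandem duplication, and received either vehicle or SHP099 for 24 hours. No WT culture received SHP099, so the data do not show whether a response to the drug depends on genotype. Each mutant culture was started from 1 mouse. Individual mice are not named for the WT cultures, so for them a p-value reflects only how much these libraries varied, which may be technical. The spread was estimated from all 9 libraries together, so the WT libraries also enter the p-values between the mutant groups.

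Before a cell copies its DNA, the origin recognition complex, Cdc6 and Cdt1 load the MCM helicase on chromatin in G1. At the start of S phase, Cdc45, the GINS complex and Mcm10 turn the loaded helicase on, and polymerases, the clamp Pcna and its loader Rfc follow the opened fork. Many of these genes are transcribed in late G1 by E2F factors once cyclin-dependent kinases release them from the retinoblastoma protein, so their transcripts are widely used as a readout of cells entering S phase. In bulk RNA, fewer cells in S phase and less RNA per cell cannot be told apart.

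Promoter windows are shown for 4 genes that fell with SHP099, since E2F sites near the transcription start are a known feature of this gene set. Each window runs from 250 bases before to 50 bases after the annotated start, is written 5′ to 3′ on the gene's strand and comes from RefSeq on GRCm38.p6. Capitals mark matches to an E2F-type motif (TTTGGCGC, TTTCCCGC, TTTCGCGC or TTTGGCGG) or to the CCAAT box, on either strand. The windows are Cdt1 at chr8:122567765-122568064 on the plus strand, Mcm10 at chr2:5012742-5013041 on the minus strand, Uhrf1 at chr17:56304063-56304362 on the plus strand and Pola1 at chrX:93632106-93632405 on the minus strand.
Cdt1: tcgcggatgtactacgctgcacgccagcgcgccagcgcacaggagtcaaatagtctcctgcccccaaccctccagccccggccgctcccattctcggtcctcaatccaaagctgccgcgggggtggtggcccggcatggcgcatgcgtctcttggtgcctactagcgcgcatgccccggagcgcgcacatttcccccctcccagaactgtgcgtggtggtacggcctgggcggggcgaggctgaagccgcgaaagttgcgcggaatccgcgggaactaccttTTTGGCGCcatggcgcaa
Mcm10: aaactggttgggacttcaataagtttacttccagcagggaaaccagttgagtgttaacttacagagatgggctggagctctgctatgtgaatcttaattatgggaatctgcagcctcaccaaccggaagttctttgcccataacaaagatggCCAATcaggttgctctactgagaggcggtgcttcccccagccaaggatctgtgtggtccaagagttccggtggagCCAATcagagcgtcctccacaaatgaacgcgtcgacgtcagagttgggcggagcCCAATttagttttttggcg
Uhrf1: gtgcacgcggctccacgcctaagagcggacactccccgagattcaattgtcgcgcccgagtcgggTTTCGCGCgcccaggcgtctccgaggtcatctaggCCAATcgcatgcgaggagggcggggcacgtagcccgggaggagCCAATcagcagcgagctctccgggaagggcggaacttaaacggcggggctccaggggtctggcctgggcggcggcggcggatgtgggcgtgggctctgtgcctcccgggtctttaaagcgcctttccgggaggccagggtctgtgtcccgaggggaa
Pola1: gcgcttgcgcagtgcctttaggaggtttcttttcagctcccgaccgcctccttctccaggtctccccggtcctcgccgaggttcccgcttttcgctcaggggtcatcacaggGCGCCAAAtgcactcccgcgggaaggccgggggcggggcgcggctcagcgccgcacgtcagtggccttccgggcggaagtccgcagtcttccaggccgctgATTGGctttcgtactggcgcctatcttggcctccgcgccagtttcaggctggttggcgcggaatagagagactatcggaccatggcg
Cdt1 held TTTGGCGC just downstream of its start and no CCAAT box, Uhrf1 held TTTCGCGC and 2 CCAAT boxes, and Pola1 held 1 match of each kind, both on the reverse strand. Mcm10 held 3 CCAAT boxes and none of the 4 E2F-type motifs. Its window ends in tttggcg, which begins both TTTGGCGC and TTTGGCGG, so a match running past the window's end could not be seen. For Uhrf1, which has 2 annotated windows, the one with the E2F-type match is shown.

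Of the 36 genes, 30 were matched in the promoter table, with 36 windows between them; Gins1, Gins2, Tipin, Ccne2, Pole and Mcm4 were not matched. At least 1 of the 4 E2F-type motifs was present in 13 of the 36 windows (36.1%), against 2.36% of all 32817 windows of the same length. The 13 genes were Cdc6, Cdt1, Mcm3, Mcm5, Mcm6 and Mcm7 among the licensing genes, Pola1, Lig1 and Rfc3 at the fork, Chaf1a and Uhrf1 in chromatin assembly, and E2f2 and Dtl. CCAAT was present in 63.9% of the windows of these genes and in 37.4% of all windows. Matches of 2 E2F-type motifs overlapped each other in Mcm5 and Mcm6, and 1 E2F-type match shared a base with a CCAAT box in Mcm7. E2f2, which rose with SHP099, and Dtl, which fell, each held both TTTGGCGG and TTTGGCGC in 1 window. When 1 library was left out, the E2f2 rise no longer passed the threshold given below in 5 of 9 fits, and the Dtl fall in 7 of 9. Whether the motifs relate to the direction of change was not tested. A match describes these letters and was not tested as a binding site.

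Library totals ran from 27242168 to 45810089 counts. The lowest count of any of the 36 genes in any library was 646, so all passed the filter on low counts, which kept 13270 genes. The ribosomal precursor Rn45s took 4.33% of the counts in SHP099 replicate 3 and 0.276% to 0.734% in the other libraries; values without that library are given beside the results it changes. Levels are CPM, counts scaled to a common library size after correction by the trimmed mean of M values (TMM). Fold changes are log2 values with their standard error from edgeR's quasi-likelihood test, with Benjamini-Hochberg adjusted p-values taken over the whole 13270. A gene is called changed at an adjusted p under 0.05. Unless another fit is named, calls are from the main fit, which described all 9 libraries by their group means after TMM scaling.

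All 36 genes were expressed in every library, at a median level of 127 CPM (24 to 588) against 27.4 CPM over all tested genes. Summed over the 36, the level was 6403, 6561 and 6570 CPM from the lowest to the highest WT library, 6678, 6709 and 6748 CPM in mutant vehicle libraries, and 6467, 6502 and 6654 CPM in SHP099 libraries. On this TMM scale the mutant vehicle libraries were the highest, but the lowest of them, at 6678 CPM, was close to the highest SHP099 library, at 6654 CPM. The sums were not compared under another scaling, so this order may depend on it. Per kilobase of transcript, the highest level belonged to Rrm2, the small subunit of the reductase that makes deoxynucleotides, at 214 CPM per kb, followed by Mcm3 and Pcna at 159 CPM per kb each. Cyclin E2 (Ccne2) was lowest at 8.38 CPM per kb. Replicates lay close together, with a median coefficient of variation of 3.66% in WT, 2.36% in mutant vehicle and 3.23% in SHP099 libraries; the highest was 16.4%, for Tyms in WT.

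**Figure D1:**
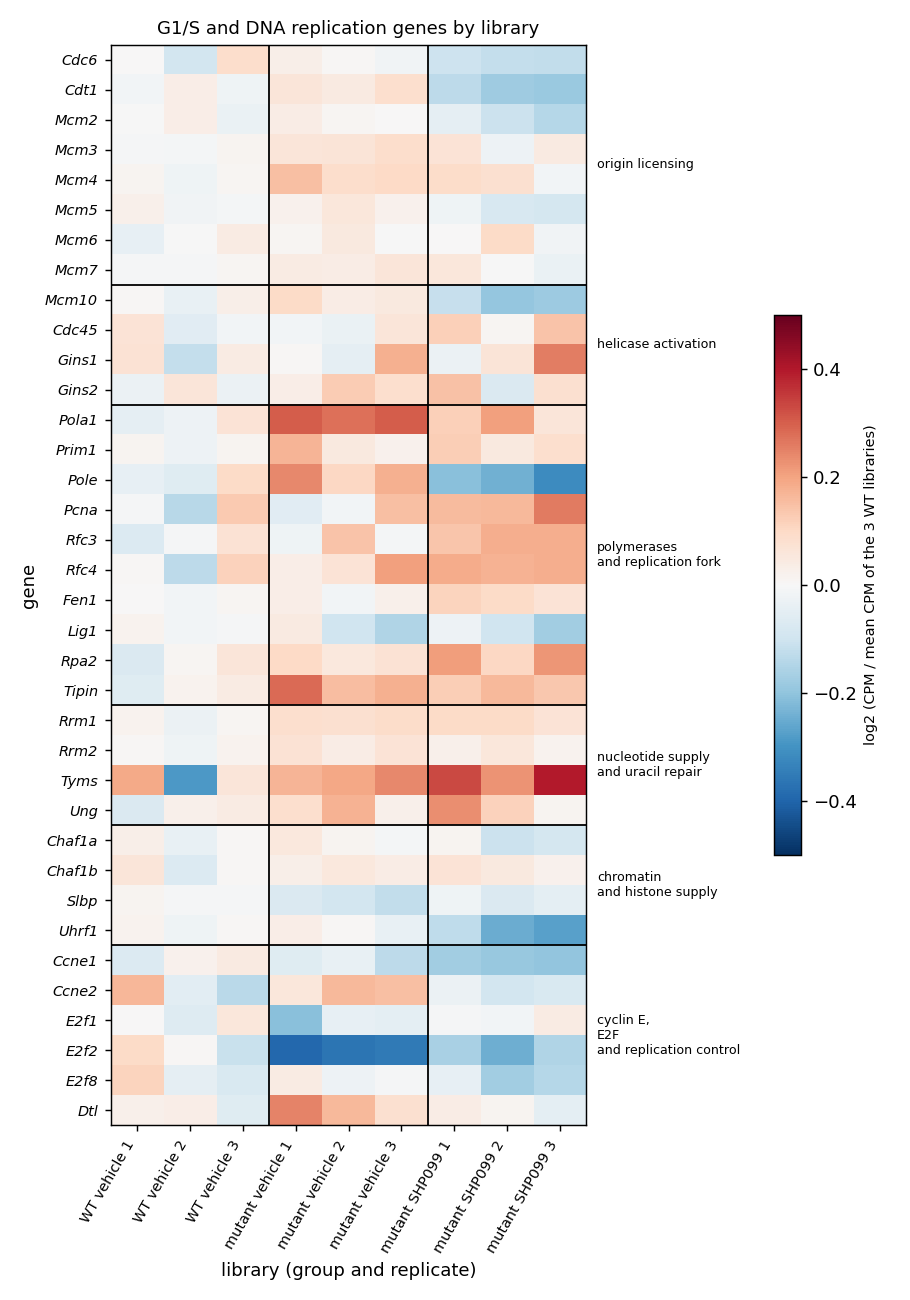
Level of each of the 36 genes (rows, grouped by role) in each of the 9 libraries (columns), as the log2 ratio of its CPM to the mean CPM of the 3 WT libraries; red is above and blue below that mean. Pole, Uhrf1 and Cdt1 are blue in the 3 SHP099 libraries, Pola1 and Tipin are red in the mutant vehicle libraries, and E2f2 is blue in all 6 mutant libraries.

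In mutant cells, 24 hours of SHP099 left most of these transcripts within a narrow range. Pole, Cdt1, Mcm10, Uhrf1, Pola1 and Dtl fell and E2f2 rose, with absolute log2 fold changes of 0.16 to 0.43, and none of the 36 moved by more than 0.5. The 7 called genes are 19.4% of the set, beside 21.8% of all genes tested; by direction, 1 rose beside 8.81% of all genes and 6 fell beside 13% of all genes. The share called is thus near the background of this comparison. The 3 SHP099 libraries lay above the 3 vehicle libraries for 6 of the 36 genes, as they did for 18.3% of all genes, and below them for 12, as they did for 22.4% of all genes. The median log2 fold change was -0.03, with 16 estimates above 0 and 20 below; the median absolute value was 0.0911, against 0.148 over all genes. Of the 29 genes not called, estimates ran from -0.19 to 0.17. For 24 of the 36, the unadjusted 95% interval lay within 0.25 log2 units of 0 on either side, and for 35 within 0.5. Without SHP099 replicate 3, the library rich in Rn45s, Pole, Cdt1, Mcm10 and Uhrf1 still fell, and E2f2, Pola1 and Dtl were no longer called (adjusted p = 0.094, 0.121 and 0.138).

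In vehicle-treated cells, few of the genes differed by genotype. Pola1, Tipin, Pole and Dtl rose in mutant against WT cells and E2f2 and Slbp fell. These 6 genes are 16.7% of the set, beside 31.6% of all genes tested; 4 rose beside 16.9% of all genes and 2 fell beside 14.7%. Mutant libraries lay above all WT libraries for 12 genes (24.6% of all genes) and below them for 2 (20.5% of all genes). Estimates were above 0 for 31 of the 36, against 54.5% of all genes, with a median of 0.05; when DESeq2's size factors replaced TMM, 24 were above 0 and the median was 0.03. The median absolute log2 fold change was 0.0694, against 0.162 over all genes. None passed 0.5, which 15.2% of all genes did.

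SHP099-treated mutant cells were also set against WT vehicle cells, which differ from them in both genotype and drug. Tyms, Rpa2 and Tipin were higher and Pole, Uhrf1, Ccne1, E2f2, Cdt1 and Mcm10 were lower. These 9 are 25% of the set, beside 31.7% of all genes tested; 3 were higher beside 15.4% of all genes and 6 lower beside 16.3%. Treated libraries lay above all WT libraries for 9 genes (24.4% of all genes) and below them for 11 (23.5%). The 3 comparisons share libraries, so the values below are set side by side and are not independent of each other. Over all 3 comparisons, 12 genes were called at least once and 24 never.

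**Figure D2:**
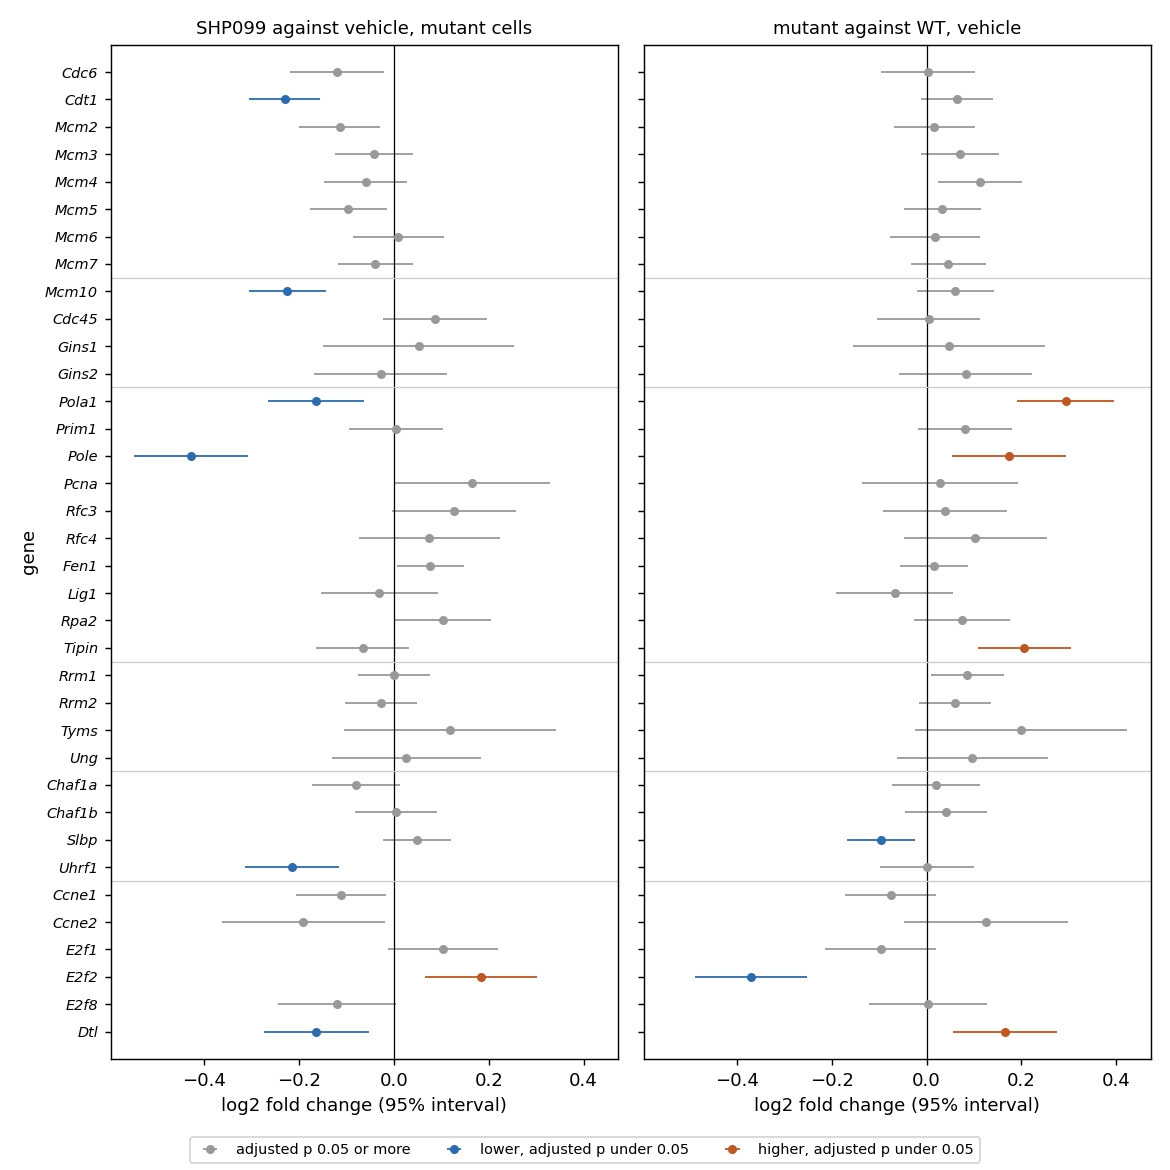
Log2 fold change of each gene with its unadjusted 95% interval, for SHP099 against vehicle in mutant cells (left) and mutant against WT vehicle cells (right); coloured points passed an adjusted p of 0.05. On the left 6 genes are lower and 1 higher, with Pole farthest from 0; on the right 4 are higher and 2 lower.

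Among the 8 origin licensing genes, 1 fell with SHP099 and none was called between genotypes. Cdt1, which helps load MCM on origins (chr8:122568015-122573554 on GRCm38), was at 115, 119 and 114 CPM in WT libraries, 121, 119.6 and 123 CPM in vehicle-treated mutant libraries, and 106, 102 and 102 CPM in SHP099 libraries. All 3 SHP099 libraries were below all 6 others. Cdt1 fell with SHP099 by 0.23 ± 0.03 on the log2 scale (adjusted p = 0.0017), and treated cells were below WT at -0.17 ± 0.03 (adjusted p = 0.00589). Its promoter window is printed above. Cdc6, the ATPase that acts with Cdt1, was 88 ± 5.46 CPM in WT, 88.3 ± 1.43 in mutant vehicle and 81.3 ± 0.577 in SHP099 cells (SD, n = 3), and its SHP099 difference did not pass (adjusted p = 0.0819).

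The 6 subunits of the MCM2 to MCM7 helicase ring were alike in level and in fold change. They lay within 86.5 to 159 CPM per kb, a span of 1.84 times. Their log2 fold changes were -0.11 to 0.01 with SHP099 (lowest adjusted p 0.0593), 0.02 to 0.11 between genotypes (lowest 0.0523) and -0.10 to 0.05 for treated against WT (lowest 0.0775), and none passed; with the pairs of mutant libraries as a block, Mcm4 passed between genotypes (0.11, adjusted p = 0.0472). Mcm3, the highest of them per kb (chr1:20802968-20820312), was at 470.4, 469 and 476 CPM in WT libraries, 492, 494 and 502 CPM in vehicle-treated mutant libraries, and 494, 464 and 487 CPM in SHP099 libraries. The mutant vehicle libraries lay above WT without overlap, while the SHP099 libraries spanned both. The lowest estimate was for Mcm2, at 372 ± 4.78 CPM in vehicle and 343 ± 11.5 CPM in SHP099 cells.

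Of the 4 genes that activate the helicase, 1 fell. Mcm10, a scaffold that activates the helicase and binds DNA polymerase alpha (chr2:4989714-5012791), was at 103, 100.3 and 105 CPM in WT libraries, 109.8, 106 and 106 CPM in vehicle-treated mutant libraries, and 94.8, 89.9 and 90.7 CPM in SHP099 libraries. The SHP099 libraries were again below all others. Mcm10 fell by 0.22 ± 0.04 on the log2 scale with SHP099 (adjusted p = 0.00278), and treated cells were below WT at -0.16 ± 0.04 (adjusted p = 0.00876). Cdc45, the helicase subunit with the highest level per kb in this role (chr16:18780447-18811987), was at 132, 121 and 125 CPM in WT libraries, 125, 123 and 131 CPM in vehicle-treated mutant libraries, and 137, 127 and 139 CPM in SHP099 libraries. Its groups overlapped, and it was not called in any comparison. The GINS subunits Gins1 and Gins2 were low, at 24.9 to 32.3 CPM and 32.5 to 37.7 CPM over the 9 libraries, with overlapping groups.

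The 10 polymerase and fork genes held the largest drop with SHP099 and 3 of the 6 genotype calls. Pole, the catalytic subunit of DNA polymerase epsilon, which synthesizes the leading strand (chr5:110286306-110337474), was at 86.2, 84.9 and 94.8 CPM in WT libraries, 105, 95.2 and 100.3 CPM in vehicle-treated mutant libraries, and 76.7, 75.1 and 71.2 CPM in SHP099 libraries. The mutant vehicle libraries were all above WT, and the SHP099 libraries were all below WT. Pole fell by 0.43 ± 0.05 on the log2 scale with SHP099 (adjusted p = 0.000874), rose in mutant against WT cells by 0.17 ± 0.05 (adjusted p = 0.0345), and was lower in treated than in WT cells at -0.25 ± 0.05 (adjusted p = 0.00706). The genotype call was lost when any 1 of 7 libraries was left out, namely WT replicate 1 or 2, mutant vehicle replicate 1 or 3, or any SHP099 library (adjusted p 0.0594 to 0.153), while the SHP099 call was not lost under any alternative tried (highest adjusted p 0.0143).

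Pola1, the catalytic subunit of polymerase alpha, which with primase starts each new strand (chrX:93304767-93632155), was at 101, 102 and 109 CPM in WT libraries, 128, 126 and 128 CPM in vehicle-treated mutant libraries, and 113, 119.6 and 108 CPM in SHP099 libraries. Mutant vehicle libraries were above all others; SHP099 libraries were between, overlapping WT. It rose between genotypes by 0.29 ± 0.05 (adjusted p = 0.00166), a call kept under every alternative tried (highest adjusted p 0.0242). With SHP099 it fell by 0.16 ± 0.05 (adjusted p = 0.0293); this call was lost without WT replicate 2, without any 1 of the mutant vehicle libraries, or without SHP099 replicate 1 or 3 (adjusted p 0.0597 to 0.121). Its partner Prim1, the catalytic primase subunit, was 56.8 ± 0.885, 60.1 ± 3.33 and 60.2 ± 1.57 CPM in the same order of groups (SD, n = 3) and was not called.

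Tipin, which with Timeless holds the fork together when it stalls (chr9:64281581-64305424), was at 115, 122 and 124 CPM in WT libraries, 146, 134 and 136 CPM in vehicle-treated mutant libraries, and 131, 135 and 132 CPM in SHP099 libraries. All 6 mutant libraries were above all WT libraries. It rose by 0.21 ± 0.04 between genotypes (adjusted p = 0.00708), a call lost under 1 alternative, the replicate block with the length and GC trend removed (adjusted p = 0.0648). It was higher in treated than in WT cells by 0.14 ± 0.04 (adjusted p = 0.0355). Of the fits that left out 1 library, the treated call was kept only without mutant vehicle replicate 1 or 2 (adjusted p 0.0528 to 0.136 where lost), and it was also lost under the replicate block (adjusted p = 0.0557). Rpa2, a subunit of the single-strand binding protein RPA (chr4:132768332-132778752), was at 92.3, 98 and 101 CPM in WT libraries, 104, 101 and 102 CPM in vehicle-treated mutant libraries, and 112, 104 and 113 CPM in SHP099 libraries. It was higher in treated than in WT cells by 0.18 ± 0.05 (adjusted p = 0.0158), which was lost without SHP099 replicate 1 or 3 (adjusted p 0.0529 and 0.102).

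The sliding clamp Pcna had the highest level per kb at the fork (chr2:132249162-132253314), at 228, 208 and 250.4 CPM in WT libraries, 219.8, 227 and 254 CPM in vehicle-treated mutant libraries, and 256, 256 and 274 CPM in SHP099 libraries. The SHP099 libraries were above all others by a small margin, since the highest vehicle library reached 254 CPM. The log2 fold change with SHP099 was 0.17 (adjusted p = 0.137), so Pcna was not called in the main fit. It was called higher with SHP099 with the replicate block over all libraries (adjusted p = 0.035) and with the block and the 2 mutant groups alone (adjusted p = 0.000885). The flap nuclease Fen1 and Rpa2 also had SHP099 libraries above vehicle without overlap and were not called with SHP099 (adjusted p = 0.113 and 0.133). The clamp loader subunits Rfc3 and Rfc4 and the ligase Lig1 were not called in any comparison in the main fit. When 1 library was left out, Rfc3 with SHP099 stayed uncalled in 8 of 9 fits. The same held for Rfc3 and for Rfc4 in treated against WT cells. In treated against WT cells, the block in mutant libraries only called Pcna and Rfc3 higher (adjusted p = 0.0341 and 0.0421), and the block over all libraries called Pcna and Rfc4 higher (adjusted p = 0.0142 and 0.0448).

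No nucleotide supply gene was called with SHP099; the 4 log2 fold changes were -0.03 to 0.12. Rrm2 (chr12:24708241-24714146) was at 462, 452 and 465 CPM in WT libraries, 484, 472 and 482 CPM in vehicle-treated mutant libraries, and 468, 478 and 465 CPM in SHP099 libraries. Its mutant vehicle libraries were above WT without overlap, by 0.06 on the log2 scale, which was not called (adjusted p = 0.211). Rrm1, the large reductase subunit, was 565 ± 9.84, 599 ± 2.52 and 599.7 ± 6.45 CPM in WT, mutant vehicle and SHP099 cells (SD, n = 3).

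Tyms, thymidylate synthase (chr5:30058202-30073617), was at 148, 107 and 136 CPM in WT libraries, 146, 149 and 154 CPM in vehicle-treated mutant libraries, and 164, 152 and 171 CPM in SHP099 libraries. WT replicate 2 stood below the other WT libraries, and the treated libraries were above all WT libraries. It was higher in treated than in WT cells by 0.32 ± 0.10 (adjusted p = 0.0364). Without WT replicate 2 the difference was 0.20 (adjusted p = 0.0503), and the call was also lost without WT replicate 3 or SHP099 replicate 1 or 3 (highest adjusted p 0.13). The table lists a Tyms pseudogene, so reads of near-identical sequence could have been split. Ung, which removes uracil from DNA, was low, at 21.7 to 26.8 CPM over the 9 libraries.

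In chromatin and histone supply, Uhrf1 fell with SHP099. Uhrf1 recognizes hemimethylated DNA behind the fork and recruits the maintenance methyltransferase Dnmt1 (chr17:56303321-56323486); it was at 276, 269 and 274 CPM in WT libraries, 279.6, 274 and 266 CPM in vehicle-treated mutant libraries, and 250.3, 229.7 and 226 CPM in SHP099 libraries. WT and mutant vehicle overlapped fully and the SHP099 libraries were below both. Uhrf1 fell by 0.21 ± 0.04 with SHP099 (adjusted p = 0.00868) and was lower in treated than in WT cells at -0.21 ± 0.04 (adjusted p = 0.00656). Slbp, which binds histone mRNA stem-loops (chr5:33634952-33652574), was at 144, 142 and 142 CPM in WT libraries, 136, 134 and 131 CPM in vehicle-treated mutant libraries, and 141, 136 and 138 CPM in SHP099 libraries. The 3 mutant vehicle libraries were the lowest of the 9, and Slbp fell by 0.10 ± 0.03 between genotypes (adjusted p = 0.0468), a call lost without WT replicate 1 or 2 or without any 1 of the mutant vehicle libraries (adjusted p 0.0557 to 0.106), and also with no low-count filter (adjusted p = 0.111) or with the replicate block over all libraries or in mutant libraries only (adjusted p = 0.0623 and 0.061). The chromatin assembly factor subunits Chaf1a and Chaf1b were not called; Chaf1a was 150 ± 3.58, 152 ± 3.38 and 144 ± 6.56 CPM in WT, mutant vehicle and SHP099 cells (SD, n = 3).

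Among the 6 cyclin E, E2F and control genes, E2f2 rose and Dtl fell with SHP099, and the reverse held between genotypes. E2f2, an activating E2F factor (chr4:136172394-136196057), was at 152, 143 and 132 CPM in WT libraries, 109, 111 and 112 CPM in vehicle-treated mutant libraries, and 127, 120.2 and 128 CPM in SHP099 libraries. The 3 groups did not overlap, with WT highest and mutant vehicle lowest. It fell by 0.37 ± 0.05 between genotypes (adjusted p = 0.00117), a call kept under every alternative tried (highest adjusted p 0.00518), rose by 0.18 ± 0.05 with SHP099 (adjusted p = 0.0326), and was lower in treated than in WT cells at -0.19 ± 0.05 (adjusted p = 0.024). The SHP099 call was lost without any 1 of the mutant vehicle libraries or without SHP099 replicate 1 or 3 (adjusted p 0.0562 to 0.094), and the treated call without WT replicate 1 or 2 or SHP099 replicate 2 (adjusted p 0.0665 to 0.0823). E2f1, its closest relative in the set, was 62 ± 2.61, 58 ± 3.75 and 62.3 ± 1.35 CPM in the same groups (SD, n = 3) and was not called.

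Dtl, the receptor of the ubiquitin ligase that degrades Cdt1 at replicating DNA (chr1:191537356-191575544), was at 81.9, 82.3 and 77 CPM in WT libraries, 95.6, 89.9 and 85 CPM in vehicle-treated mutant libraries, and 82.6, 81.2 and 77.8 CPM in SHP099 libraries. Mutant vehicle libraries were above the other 6, which overlapped each other. It rose by 0.17 ± 0.05 between genotypes (adjusted p = 0.0297) and fell by 0.16 ± 0.05 with SHP099 (adjusted p = 0.041). Both calls were lost in 7 of 9 fits that left out 1 library; the SHP099 call was kept only without WT replicate 1 or mutant vehicle replicate 3 (adjusted p 0.0568 to 0.138 where lost), and the genotype call only without WT replicate 1 or mutant vehicle replicate 3 (adjusted p 0.06 to 0.154 where lost).

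Cyclin E1 (Ccne1), the kinase partner that drives S phase entry (chr7:38097984-38107534), was at 52.5, 56 and 56.8 CPM in WT libraries, 52.8, 53.7 and 50.3 CPM in vehicle-treated mutant libraries, and 48.9, 48.3 and 48.1 CPM in SHP099 libraries. The SHP099 libraries were the lowest 3 of the 9. It was lower in treated than in WT cells at -0.19 ± 0.04 (adjusted p = 0.0101), while its SHP099 difference of -0.11 was not called (adjusted p = 0.0932). Ccne2 was 24.8 ± 2.73, 27.1 ± 1.07 and 23.7 ± 0.509 CPM (SD, n = 3), not called in any comparison. E2f8, an atypical E2F repressor with the highest level per kb in this role (chr7:48866429-48881596), was at 208, 187 and 183 CPM in WT libraries, 198, 189 and 192 CPM in vehicle-treated mutant libraries, and 187, 171 and 175 CPM in SHP099 libraries. Its SHP099 libraries lay below the vehicle libraries and overlapped WT, and it was not called (adjusted p = 0.153).

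**Figure D3:**
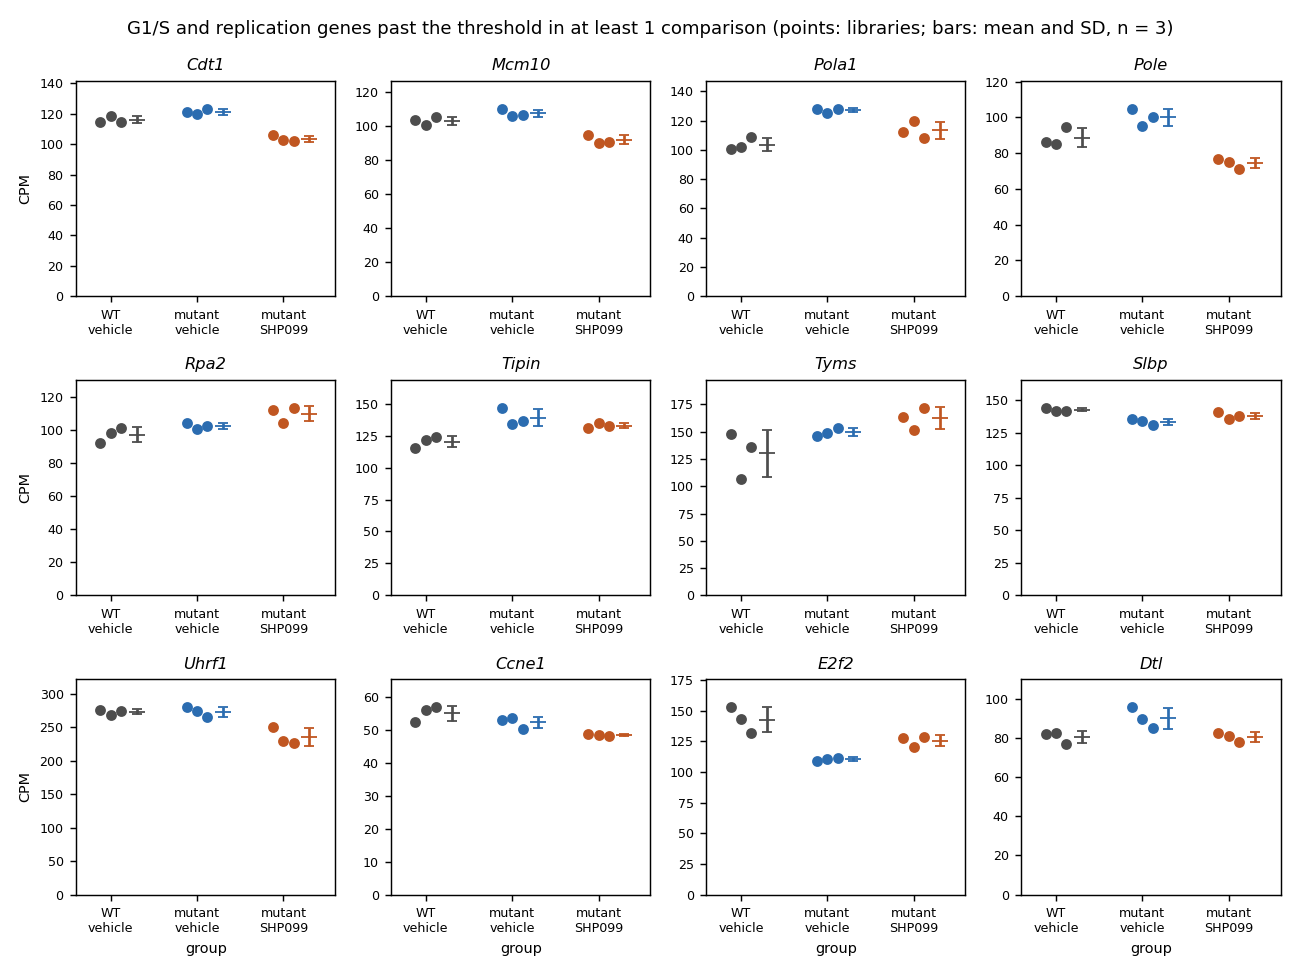
CPM in each library (points) with the mean and SD of each group (bars, n = 3) for the 12 genes called in at least 1 comparison; each vertical axis starts at 0. The shifts are small beside the level of each gene, with Pole the most separated between vehicle and SHP099 and E2f2 the most separated between WT and mutant vehicle.

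The replicate numbers pair mutant vehicle with SHP099 libraries, and the SHP099 comparison was therefore also made within pairs. With the pair as a block for mutant libraries and WT kept in the model, the same 7 genes were called, beside 27.1% of all genes; 1 rose beside 12.5% and 6 fell beside 14.6% of all genes. With the block and the 2 mutant groups alone, 5 rose (Pcna, Rpa2, E2f2, Tyms and Rfc3) and 11 fell (the same 6 with Cdc6, Mcm2, Ccne1, Ccne2 and E2f8), beside 42.8% of all genes called, 21.5% higher and 21.3% lower. In data simulated without pairing, 12.9% of this last fit's calls were false, against 6.91% without a block. The simulated libraries held no effect of the mouse, so these shares do not show how the block behaves on paired libraries.

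SHP099 differences varied with transcript length across the whole table. With all genes cut into equal bins by length, the median log2 fold change was 0.12 in the bin of the shortest transcripts and -0.19 in that of longest. Split at their median length of 3018.5 nt, of the 18 shorter genes of the set, 12 had estimates above 0, with a median of 0.04; of the 18 longer, 14 had estimates below 0, with a median of -0.09. Pole, at 7163 nt, has the longest transcript of the 36. With the trend on length and GC content removed from each library, the medians were -0.04 and -0.06. Pole still fell by 0.28 (adjusted p = 0.00888), Cdt1 by 0.24 (adjusted p = 0.002), Mcm10 by 0.16 (adjusted p = 0.0143) and Uhrf1 by 0.21 (adjusted p = 0.00892), and E2f2 still rose by 0.27 (adjusted p = 0.00691). Pola1 (-0.06, adjusted p = 0.377) and Dtl (-0.12, adjusted p = 0.127) were no longer called, and Ccne1 was called lower (-0.17, adjusted p = 0.0216). For treated against WT cells, Rpa2, Tipin, Tyms, Pole and E2f2 were no longer called once the trend was removed (adjusted p 0.0547 to 0.883), while Slbp was called lower (-0.14, adjusted p = 0.0147). For mutant against WT, Pole and Dtl were no longer called (adjusted p = 0.113 and 0.196), while Cdt1 was called higher (0.14, adjusted p = 0.00678).

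**Figure D4:**
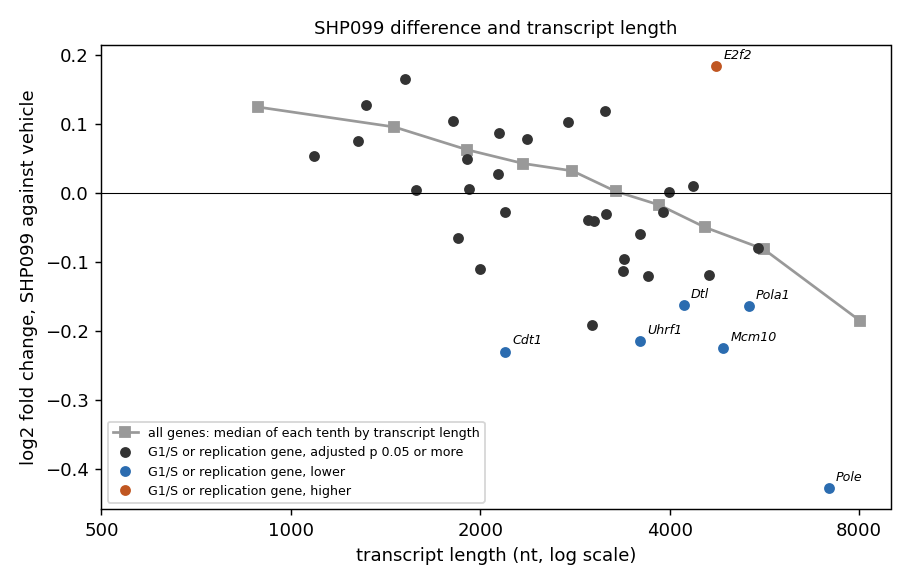
Log2 fold change with SHP099 against transcript length (log axis) for the 36 genes (circles) and the median of all genes in each of 10 length bins (grey squares). The all-gene line runs from 0.12 to -0.19; Pole lies below it at the long end, and Cdt1 lies below it at 2189 nt.

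Other genes of the same process were counted from a list of 87 replication and S phase genes outside the 36. With SHP099, 10 rose and 19 fell (33.3% called, beside 21.8% of all genes). Between genotypes 28 rose and 3 fell (35.6%, beside 31.6%). In treated against WT cells 19 were higher and 9 lower (32.2%, beside 31.7%). By direction, 8.81% of all genes rose and 13% fell with SHP099, and 16.9% rose and 14.7% fell between genotypes. In treated against WT cells 15.4% of all genes were higher and 16.3% lower. Of the 87, 20 rose and 4 fell between genotypes with DESeq2's size factors, beside 1908 and 2098 of 13270 genes. With the 2 groups alone 11 rose and 3 fell, beside 1432 and 1976 of 12992 genes. With the block in mutant libraries only, 33 rose and 4 fell, beside 2518 and 2333. Leaving out 1 library gave 3 to 10 higher and 12 to 19 lower with SHP099, fewest higher without mutant vehicle replicate 1 and fewest lower without SHP099 replicate 3. Between genotypes it gave 10 to 21 higher and 2 to 3 lower, fewest higher without mutant vehicle replicate 3. In treated against WT cells it gave 10 to 19 higher and 7 to 10 lower, fewest higher without SHP099 replicate 3. Over all genes, the fits just named gave 730 higher with SHP099 (without mutant vehicle replicate 1) and 1094 lower (without SHP099 replicate 3). The fit without mutant vehicle replicate 3 gave 1351 higher between genotypes, and that without SHP099 replicate 3 gave 1080 higher in treated against WT cells. With the length and GC trend removed, 3 rose and 16 fell with SHP099, 14 rose and 4 fell between genotypes, and 9 were higher and 8 lower in treated against WT cells. Of all 13270 genes under that setting, 1005 rose and 1199 fell with SHP099. Between genotypes 1902 of them rose and 2029 fell, and in treated against WT cells 1628 were higher and 1778 lower. With SHP099, Recql4, a helicase of replication initiation, fell by 0.59 ± 0.07 (34.4 to 22.9 CPM, adjusted p = 0.000862), Chtf18, of an alternative clamp loader, fell by 0.29 ± 0.04, E2f3, an activating E2F, fell by 0.27 ± 0.04 and Dnmt1, the partner of Uhrf1, fell by 0.29 ± 0.05 (611 to 499 CPM, adjusted p = 0.00262). Between genotypes, the chromatin remodeller Hells rose by 0.43 ± 0.06, the histone chaperone Rbbp7 by 0.28 ± 0.03 and the origin recognition subunit Orc3 by 0.27 ± 0.04, while Rb1, the retinoblastoma protein that restrains E2F, fell by 0.44 ± 0.06 (98.7 to 72.9 CPM, adjusted p = 0.00109). In treated against WT cells, Cdc25a, the phosphatase that activates CDK2, was lower at -0.34 ± 0.04, as was Recql4 at -0.49 ± 0.07, and Rbbp4 and Rbbp7 were higher by 0.25 ± 0.04 and 0.21 ± 0.03.

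Genes of the next cell cycle phases were counted in the same way. Of 30 G2/M genes, 2 rose and 6 fell with SHP099 (26.7% called, beside 21.8% of all genes), 4 rose and 2 fell between genotypes (20%, beside 31.6%), and 4 were higher and 2 lower in treated against WT cells (20%, beside 31.7%). The shares of all genes by direction are those given for the other replication genes. Leaving out 1 library gave 2 to 8 higher and 0 to 3 lower between genotypes, with the 8 and the 0 both without WT replicate 1, and 3 to 4 higher and 1 to 4 lower in treated against WT cells. Of 13407 genes in the fit without WT replicate 1, 1860 rose and 1596 fell between genotypes. Mki67, the proliferation marker Ki-67, fell with SHP099 by 0.34 ± 0.06 (1119 to 882 CPM, adjusted p = 0.0032), as did the mitotic genes Cenpe by 0.34 ± 0.08 and Hmmr by 0.29 ± 0.07, while Birc5 rose by 0.14 ± 0.03. The spindle checkpoint kinases Bub1 and Ttk rose between genotypes by 0.31 ± 0.04 and 0.22 ± 0.04, Top2a by 0.19 ± 0.05 and Anln by 0.23 ± 0.07. In treated against WT cells, Mki67 was lower at -0.30 ± 0.06, and Bub1, Mad2l1 and Birc5 were higher by 0.24, 0.22 and 0.15. With the length and GC trend removed, 3 of the 30 rose and 3 fell with SHP099, beside 1005 and 1199 of all 13270 genes. Under that setting Mki67 (-0.11, adjusted p = 0.121) and Cenpe (-0.15, adjusted p = 0.158) were no longer called with SHP099. Without SHP099 replicate 3, 2 of the 30 fell with SHP099, beside 1094 of 13352 genes, and Birc5 and Cenpe were no longer called (adjusted p = 0.0537 and 0.0523). The genotype calls of Top2a and Anln were lost without several of the libraries (highest adjusted p 0.165 and 0.119 over all alternatives).

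**Figure D5:**
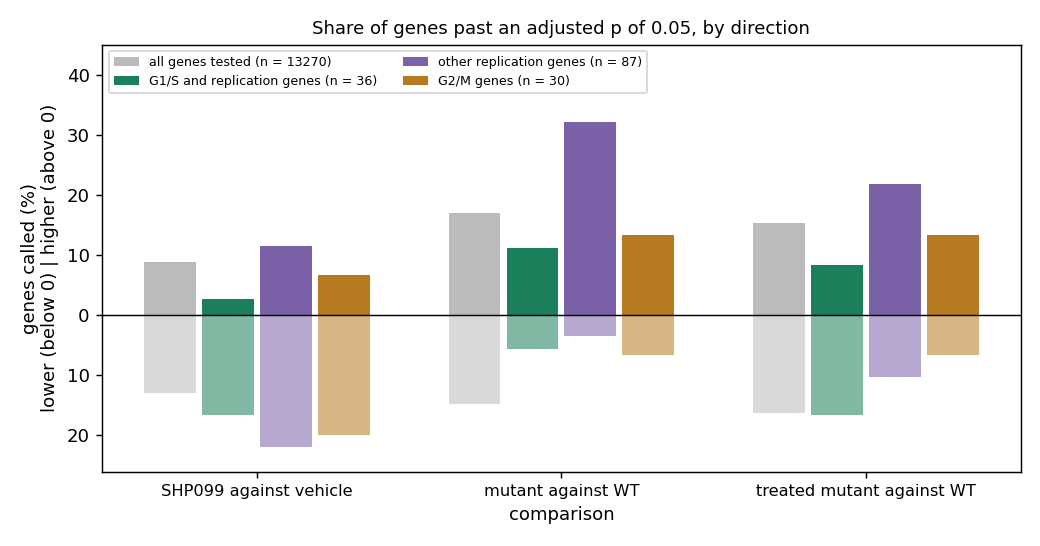
Percent of genes called higher (solid bars above 0) and lower (faded bars below 0) at an adjusted p of 0.05, for all 13270 tested genes, the 36 G1/S and replication genes, the 87 other replication genes and the 30 G2/M genes, in each comparison. The 36 genes stand at 19.4%, 16.7% and 25% called in the 3 comparisons, both directions summed, and the 87 other replication genes at 33.3%, 35.6% and 32.2%.

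Markers of the cell types these cultures can hold moved between the groups. The summed level of 16 mature neutrophil markers was 24709 to 31319 CPM in WT, 18060 to 19208 CPM in mutant vehicle and 25943 to 31084 CPM in SHP099 libraries, led by S100a9 and S100a8. With SHP099, 4 of the 16 rose and none fell, and between genotypes 1 rose and 9 fell. Beside these and the counts that follow, 8.81% of all genes rose and 13% fell with SHP099, and 16.9% rose and 14.7% fell between genotypes. For 16 mast cell and basophil markers the sums were 2875 to 3291, 1556 to 2167 and 2182 to 2804 CPM, with 12 lower between genotypes and 5 higher with SHP099. For 17 monocyte and macrophage markers they were 1143 to 1487, 1429 to 1727 and 2031 to 2221 CPM, with 3 higher with SHP099 and 5 higher and 1 lower between genotypes. For 11 megakaryocyte markers they were 4084 to 5169, 1826 to 2532 and 2237 to 2989 CPM, and all 11 fell between genotypes while 2 rose with SHP099. For 13 erythroid markers they were 939 to 1175, 801 to 846 and 719 to 847 CPM, carried by Tfrc, with all 4 globin genes at 0 in every library. Of the 9 erythroid markers that could be tested, 8 fell and 1 rose between genotypes, with a median log2 fold change of -1.48, and 1 fell with SHP099. The progenitor markers, led by Mpo, a gene of myeloid precursor granules, summed to 13859 to 17527, 15462 to 22128 and 16346 to 22724 CPM. Of 10 lymphoid markers, 8 were under 1 CPM in every library, and the sum of 113 to 121, 116 to 119 and 169 to 187 CPM came almost wholly from Nkg7. The part of these shifts in the differences of the 36 genes was not tested.

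The annotation places 8 of the 36 genes over a coding gene on the opposite strand (Mcm7, Cdc45, Gins2, Rfc4, Fen1, Lig1, Chaf1a and Ccne2), and the labels and notes do not give the strand setting of the counting, so their counts could include reads of the neighbour. None of these 8 was called in any of the 3 comparisons in the main fit, but some were under other fits. Ccne2 was called lower with SHP099 with the block and the 2 mutant groups alone (adjusted p = 0.00756). Rfc4 was called higher in treated against WT cells with the block over all libraries (adjusted p = 0.0448). Fen1 was called under at least 1 alternative with SHP099 (lowest adjusted p 0.0392) and in treated against WT cells (lowest adjusted p 0.0442). The same held for Ccne2 between genotypes (lowest adjusted p 0.0338). Cdt1, which was called, overlaps the gene model Gm20388 on the same strand; Gm20388 is not analysed here, and whether reads in the overlap were counted for Cdt1 is not known here.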

How the data were processed

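The authors deposited raw counts per gene symbol for 9 libraries. Libraries were made with a TruSeq stranded mRNA kit, per the labels' protocols. Per the submitters' processing notes, FastQC, STAR, featureCounts and Subread were used with the build mm10; annotation release and strand setting: not given in the sources used here. The column of 1 library ends in another character than the matching sample's title; it was taken as SHP099 replicate 3, the sole sample of that genotype, number and treatment. Groups and replicate numbers come from the labels. Replicates differed by more than sampling noise (chi-square per degree of freedom 11.1 to 116).

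Counts were tested in R 4.3.3 with edgeR 4.0.16. Of the symbols, 13270 passed filterByExpr (minimum count 10) and 11151 did not. After TMM scaling, 1 quasi-likelihood model described all 9 libraries by their group means. Tests were two-sided, with Benjamini-Hochberg adjustment over all genes and a threshold of 0.05; ± after a fold change is the standard error. The biological coefficient of variation was 9.04%. Gene coordinates, GC content and the length of the longest coding transcript come from GENCODE M21 on GRCm38, which gave a length for 23376 symbols.

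The 36 genes, the other gene lists and the tests were chosen with earlier results of these data known. Values in each library are given for every gene called in a comparison and for the gene with the highest count per kb in each role; from the other lists, up to 4 called genes with the smallest p are named per comparison. Promoters were printed for at most 4 called genes.

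Same-numbered vehicle and SHP099 libraries of mutant cells, which come from cultures of individual mice, deviated together from their group means (r = 0.54, 0.6 and 0.56 across genes; -0.36 to -0.23 for different numbers), so the numbers pair them. Alternatives were DESeq2's size factors, DESeq2 1.42.0, other low-count filters, each library left out, the replicate block, the compared groups alone, and removal of a length and GC trend (lowess span 0.3). Blocks for the mutant libraries alone were chosen after seeing the data. Data were also simulated without pairing, in 2 draws with 200 changed genes, fewer than were called in the real data. There the SHP099 fit without a block, on 13149 genes, found 57.1% of changes of 0.5 log2 units. It found 81.5% of changes of 1, with 6.91% of calls false.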

Additional observations from a re-analysis of the deposited data

How the results depend on the processing

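Each count of called genes among the 36 was recomputed under every alternative. Only the larger changes in counts are listed here and in the next paragraph, so a setting that is not named can still differ. For SHP099 against vehicle, 1 gene was higher and 6 lower; DESeq2 gave 2 higher, the replicate block over all 9 libraries gave 2 higher, and the block with the 2 mutant groups alone gave 5 higher and 11 lower. Leaving out 1 library gave 0 to 1 higher and 4 to 7 lower. For mutant against WT, 4 were higher and 2 lower; a filter of 1 CPM in 3 libraries, the 2 groups alone, and the replicate block with the length and GC trend removed each gave 2 higher, while no low-count filter, the replicate block, and the block in mutant libraries only each gave 1 lower. Leaving out 1 library gave 2 to 5 higher and 1 to 2 lower. For treated mutant against WT, 3 were higher and 6 lower; DESeq2 and the block in mutant libraries only each gave 5 higher, removing the trend gave 0, and either block with the trend removed gave 1. Leaving out 1 library gave 0 to 4 higher and 5 to 6 lower. Unless named in the text, the cause of these shifts was not tested.

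No called gene changed direction under these alternatives. Of 2088 values for single genes, 1950 kept their side of the threshold, 93 lost and 45 gained a call; among 1663 values of genes that were not called, 156 changed sign. Over all genes, SHP099 gave 1169 higher and 1721 lower calls; higher calls were 730 without mutant vehicle replicate 1, 673 without SHP099 replicate 3 and 2791 with the block and 2 mutant groups alone, and lower calls were 1090 without mutant vehicle replicate 3, 1125, 1097 and 1094 without SHP099 replicates 1, 2 and 3, 1137 with the replicate block and the trend removed, and 2772 with the block and 2 mutant groups alone. Mutant against WT gave 2248 higher calls, against 1370 without WT replicate 2, 1351 without mutant vehicle replicate 3 and 1432 with the 2 groups alone, and treated against WT gave 2045, against 1080 without SHP099 replicate 3. With 3 libraries a group and a median standard error of 0.04 log2 units, differences smaller than about the called ones are not resolved here.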
